A study of Mus musculus with 2 samples.

Results

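The cells of the brequinar series called to the 12 h culture were set against those called to the 6 h culture, which asks what differed between these 2 times of exposure. They were chosen by the authors' barcode calls, with doublet and negative calls left out, and numbered 2789 of the 12540 cells with a condition, with 1536 at 12 h and 1253 at 6 h. The cells are the 63.3 mouse line of acute myeloid leukemia (AML). All cultures of the brequinar series were kept in medium with 0.5 µM beta-estradiol and stem cell factor, and the 12 h and 6 h cultures had 2 µM brequinar added for those times. In a second series estradiol was washed out for 6, 12, 24 or 48 h without brequinar, and each series had its own 0 h culture in estradiol. What else the 0 h cultures received is not given in the sources used here. Each culture was marked with its own MULTI-seq oligonucleotide, a lipid-anchored DNA barcode that labels all cells of a tube, before all 10 cultures were pooled. The barcodes that assigned the cells compared here are shown because every value below rests on them.
BRQ_12h: TGAGACCT
BRQ_6h: GCACACGC

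Brequinar blocks dihydroorotate dehydrogenase (DHODH), the mitochondrial enzyme that makes orotate on the way to uridine and cytidine nucleotides. Cells that lose these nucleotides lack building blocks for RNA and DNA, and replication forks then slow and call on the ATR and CHK1 checkpoint. In myeloid leukemia lines held as progenitors, DHODH inhibition is known for letting cells leave the progenitor state and differentiate.

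The measurement was the sum of spliced unique molecular identifiers (UMIs, each 1 captured RNA molecule) per gene over the cells of a culture, scaled to a fixed total per culture of 1000000 UMIs (counts per 1000000, CPM). The 12 h culture held 15957273 UMIs with a median of 11741 per cell, and the 6 h culture 13124084 with a median of 11301. There was 1 culture per time, and the 2 sequencing runs repeat 1 pool, so no test was possible. Intervals given with a ratio are exact 95% intervals that cover counting error only. Of 14 myeloid blast markers, 13 stood at 20 CPM or more at 12 h and 12 at 6 h. Markers of T and NK cells, erythroid cells and fibroblasts summed to at most 10.5 CPM in either culture. B cell markers summed to 85.8 CPM at 12 h and 74.4 CPM at 6 h, megakaryocyte markers to 32.8 CPM at 12 h and 24.4 CPM at 6 h, and mast cell and basophil markers to 624 CPM at 12 h and 392 CPM at 6 h. Cells with 10% or more mitochondrial UMIs made up 18.8% of the 12 h cells and 16.2% of the 6 h cells, and the part of this in the results was not tested.

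Of 6033 genes that reached 20 CPM in at least 1 of the 2 cultures, 410 (6.8%) were 1.5-fold or more higher at 12 h than at 6 h and 203 (3.36%) were 1.5-fold or more lower. With the scaling set to the median gene ratio in place of the total, these counts were 329 and 266. The median log2 ratio of all measured genes was 0.05 with an SD of 0.34 across genes. The 2 cultures at 0 h, set against each other in the same way, gave 0 genes higher and 3 lower (0.0546%) of 5490, with an SD of 0.06. The step between 6 and 12 h of withdrawal, made of other cultures, had 233 genes higher (3.96%) and 254 lower (4.31%) of 5891. A count of list members in the brequinar step below, over all cells, is to be read against 6.8% higher and 3.36% lower. For list members in the withdrawal step the background is the same 6033 genes, of which 185 were higher and 270 lower there. Counts over all genes within cell classes are given with those classes. Those under other settings are given at the end mostly as a range, so most list counts under such a setting lack a background of their own. Differences of 2-fold or more numbered 97 genes higher and 40 lower, so most of the step lay between 1.5-fold and 2-fold. Some list members named below reached 20 CPM only in the culture where they were higher, so the filter leaned towards calling them. Examples are Itgb2, Siglecf, Fos, Nt5c2, Ikzf2, Gsta4 and Srxn1.

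**Figure D1:**
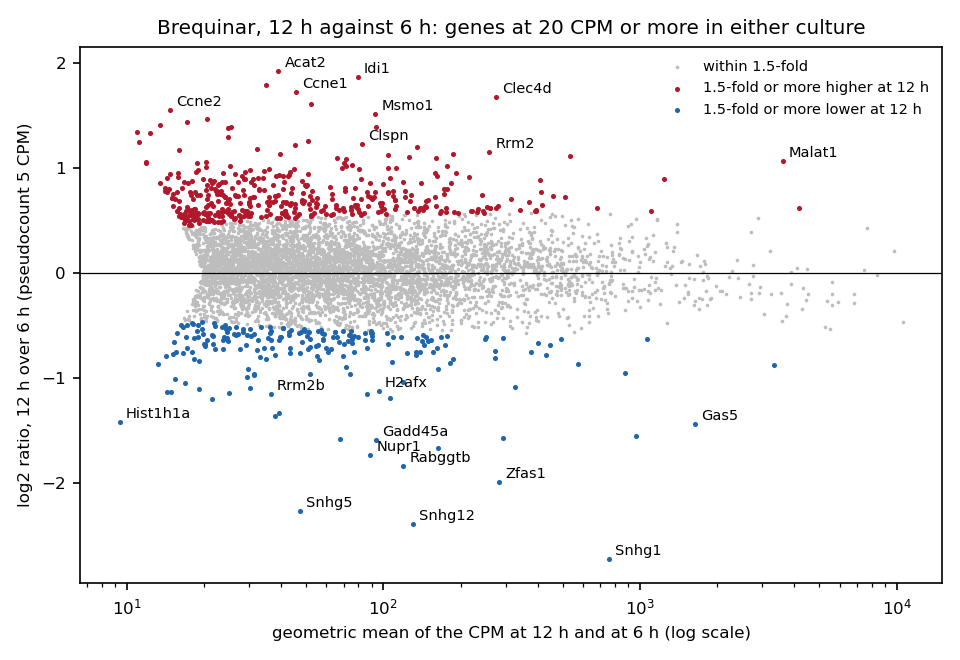
Each point is 1 of the 6033 genes that reached 20 CPM in at least 1 brequinar culture, with the geometric mean of its CPM at 12 h and 6 h on the x axis (log scale) and the log2 ratio of 12 h over 6 h (pseudocount 5 CPM) on the y axis. Genes 1.5-fold or more higher at 12 h (410, red) are led by sterol and cyclin E genes, and those lower (203, blue) by small nucleolar RNA host genes.

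Genes of cholesterol and fatty acid synthesis were the list with the highest median. Of 25 measured members, 20 were 1.5-fold or more higher at 12 h and 0 were lower, with a median log2 ratio of 0.76 against 0.05 for all measured genes. Acat2, the cytosolic acetyl-CoA acetyltransferase that starts the mevalonate pathway, stood at 83.3 CPM at 12 h and 18.3 CPM at 6 h, a ratio of 4.56 (3.97 to 5.25). Idi1, the isopentenyl diphosphate isomerase, stood at 159 CPM at 12 h and 39.9 CPM at 6 h (3.99-fold, 3.63 to 4.39). Both 6 h levels lay below those of the 0 h culture, which were 32.7 CPM for Acat2 and 57.5 CPM for Idi1, and both 12 h levels lay above them. Msmo1, a sterol C4 methyl oxidase, had 162 CPM at 12 h and 53.3 CPM at 6 h. The members past the threshold thus ran across the pathway, with Pmvk (2.08-fold), Mvk (1.72-fold), Fdps (2.06-fold), Fdft1 (1.57-fold), Sqle (1.76-fold), Cyp51 (2.27-fold), Nsdhl (1.89-fold) and Dhcr7 (2.41-fold), which act on successive intermediates.

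Genes that control the pathway lay on the same side. Insig1, which holds the sterol sensor SCAP in the endoplasmic reticulum, had 161 CPM at 12 h and 78.1 CPM at 6 h. Srebf1 and Srebf2 encode the transcription factors that drive these genes, and their ratios were 1.73 (1.49 to 2.02) and 1.65 (1.47 to 1.86). Stard4, a cytosolic sterol carrier, had a ratio of 2.04. On the fatty acid side, Fasn, the fatty acid synthase, had 61.9 CPM at 12 h and 25.4 CPM at 6 h (2.43-fold), the citrate lyase gene Acly 109.9 CPM at 12 h and 68.7 CPM at 6 h, and the desaturase gene Scd2 315 CPM at 12 h and 186 CPM at 6 h. The 5 measured members that did not reach 1.5-fold were Acaca (1.4-fold), Ebp (1.29-fold), Fads1 (1.22-fold), Sc5d (1.15-fold) and Hmgcs1. Hmgcs1, the cytosolic HMG-CoA synthase of the pathway, was the only measured member with a ratio below 1, with 80.4 CPM at 12 h and 88.5 CPM at 6 h.

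The 12 h level was the highest of the 5 times of the brequinar series for Acat2, Idi1, Msmo1, Fasn, Cyp51 and Pmvk. Idi1 stood at 57.5, 39.9, 159, 57.4 and 58.1 CPM at 0, 6, 12, 24 and 48 h, and Acat2 at 32.7, 18.3, 83.3, 46.6 and 34.4 CPM. Insig1 differed, with its highest level at 48 h (178 CPM). In the withdrawal step the same 25 members had a median log2 ratio of -0.08, with 1 higher and 0 lower. Idi1 there had 28.8 CPM at 12 h and 34.8 CPM at 6 h, and the brequinar ratio was 4.82 times the withdrawal ratio (4.05 to 5.73). For Acat2 that ratio of ratios was 4.69 (3.71 to 5.92). At 24 h of withdrawal Idi1 stood at 90.8 CPM and Acat2 at 47.8 CPM, both above their own 0 h levels of 52.4 and 34.4 CPM.

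**Figure D2:**
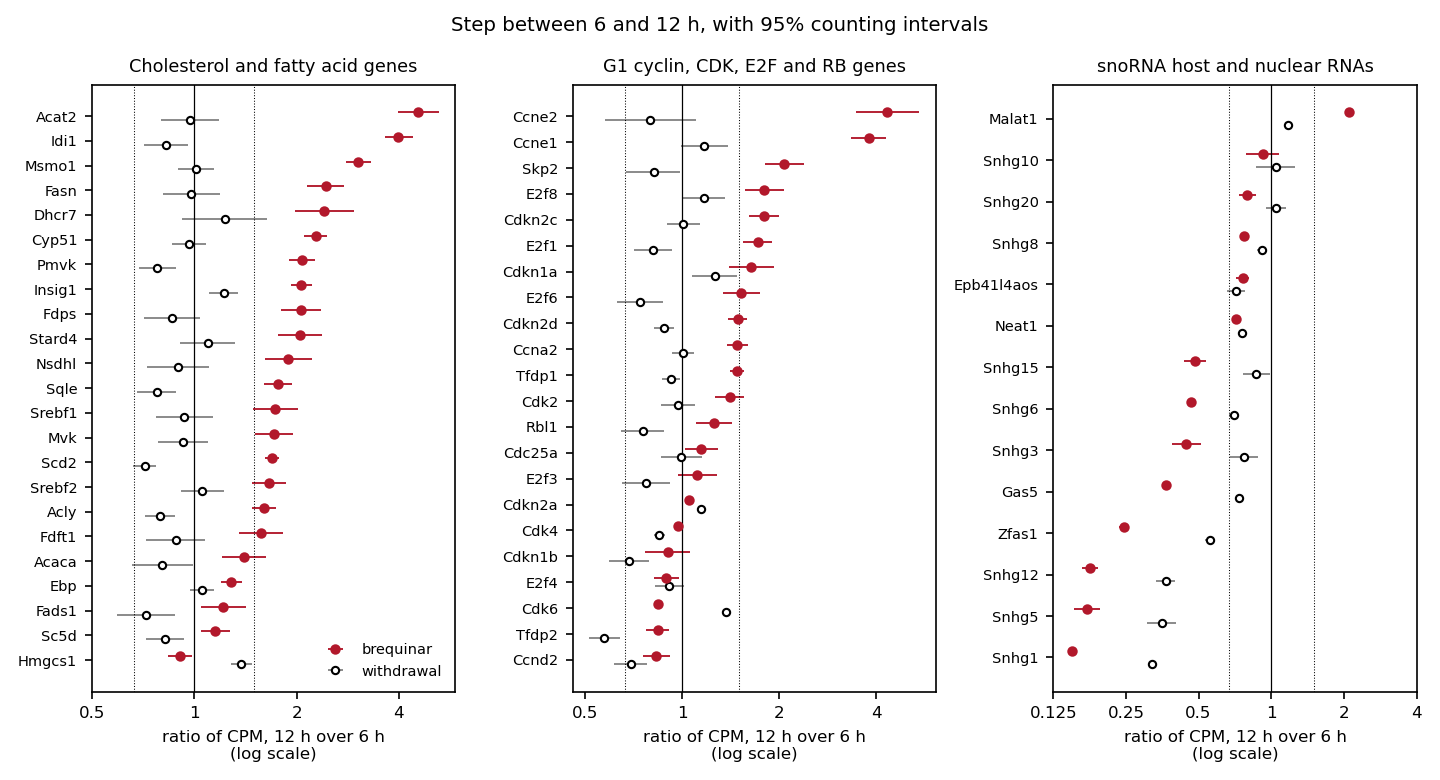
Ratio of CPM at 12 h over 6 h (log scale) for measured members of 3 gene lists, with brequinar in red and estradiol withdrawal as open circles; bars are 95% counting intervals, and dotted lines mark 1.5-fold in either direction. With brequinar, 18 of the 23 sterol and fatty acid genes drawn and 8 of 22 G1 genes lie past 1.5-fold higher, and 8 of 14 host and nuclear RNAs past 1.5-fold lower.

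Both cyclin E genes were higher at 12 h. Cyclin E binds CDK2 and drives entry into S phase, and E2F factors switch its genes on once RB is phosphorylated. Ccne1 stood at 89.3 CPM at 12 h and 23.5 CPM at 6 h (3.79-fold, 3.35 to 4.3), and Ccne2 at 30.6 CPM at 12 h and 7.09 CPM at 6 h (4.32-fold, 3.45 to 5.45). Over the series Ccne1 stood at 39.2, 23.5, 89.3, 40.9 and 21.6 CPM at 0, 6, 12, 24 and 48 h, so the 12 h culture alone stood above the 0 h culture by more than 2-fold. Of 22 measured genes of G1 cyclins, CDKs, E2F and RB, 8 were higher and 0 lower, with a median log2 ratio of 0.49 (-0.15 with withdrawal). The other 6 were Skp2 (2.07-fold), whose ubiquitin ligase removes p27, E2f1 (1.71-fold), the repressors E2f8 (1.8-fold) and E2f6 (1.53-fold), and the CDK inhibitor genes Cdkn2c (1.79-fold) and Cdkn1a (1.64-fold). The D-type cyclin side of the list was flat or lower, with Ccnd2 at 54.5 CPM at 12 h and 65.5 CPM at 6 h, Cdk6 at 981 CPM at 12 h and 1169 CPM at 6 h, and Cdk4 at 529 CPM at 12 h and 544 CPM at 6 h.

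Genes of S phase showed the same direction over nearly the whole list. Of 40 measured members, 16 were higher and 0 lower, and 38 had a ratio above 1, with a median log2 ratio of 0.48. Rrm2, the regulated subunit of ribonucleotide reductase, which makes deoxynucleotides, stood at 388 CPM at 12 h and 172 CPM at 6 h (2.26-fold, 2.15 to 2.37). Its partner Rrm1 had 231 CPM at 12 h and 130.0 CPM at 6 h. The 12 h level of Rrm2 was close to that of the 0 h culture (375 CPM), and that of Rrm1 was above it (176 CPM). Among 15 measured genes of deoxynucleotide supply, 5 were higher and 1 lower, with a median log2 ratio of 0.45. The others that were higher were Dck, the salvage kinase for deoxycytidine (106 CPM at 12 h and 63.4 CPM at 6 h), Nudt1, which clears oxidised nucleotides (121 CPM at 12 h and 64.5 CPM at 6 h), and Samhd1, which breaks deoxynucleotides down (28.0 CPM at 12 h and 18.5 CPM at 6 h). Tyms and Dut, which make and protect the thymidylate supply, were at ratios of 1.47 and 1.37, within 1.5-fold. Rrm2b, the p53-controlled form of the small subunit, went the other way, with 23.1 CPM at 12 h and 57.5 CPM at 6 h (2.49-fold lower, 2.2 to 2.83).

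Of 49 measured genes of the replication machinery, 14 were higher and 0 lower, with a median log2 ratio of 0.37. The highest were Asf1b, a histone chaperone (188 CPM at 12 h and 84.7 CPM at 6 h), Cdc7, the kinase that fires origins (108 CPM at 12 h and 47.9 CPM at 6 h), Lig1, which joins Okazaki fragments (256 CPM at 12 h and 123 CPM at 6 h), and Dna2, a flap nuclease (41.5 CPM at 12 h and 20.0 CPM at 6 h). The roles divided unevenly. The sliding clamp Pcna (1.68-fold), 3 of its loader subunits, Rfc3 (1.75-fold), Rfc4 (1.52-fold) and Rfc5 (1.71-fold), and the polymerase genes Pole (1.7-fold) and Pold1 (1.61-fold) passed 1.5-fold. The MCM helicase genes did not, with ratios of 1.31 for Mcm6, 1.3 for Mcm3, 1.24 for Mcm4, 1.21 for Mcm5, 1.09 for Mcm2 and 0.974 for Mcm7. The origin recognition genes Orc2, Orc3, Orc5 and Orc4 lay between 0.679 (Orc4) and 1.03 (Orc2), and Orc6 at 1.34.

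Of 37 measured genes of the fork checkpoint and of repair, 12 were higher and 1 lower, with a median log2 ratio of 0.26. Clspn, the adaptor through which ATR activates CHK1, stood at 130.2 CPM at 12 h and 52.5 CPM at 6 h (2.48-fold, 2.27 to 2.71). It remained at 123 CPM at 24 h, above the 63.7 CPM of the 0 h culture. Brip1, a helicase that works with BRCA1, had 50.6 CPM at 12 h and 23.2 CPM at 6 h, and Brca1 itself 36.9 CPM at 12 h and 20.1 CPM at 6 h. Brca2, Bard1, Rad54l, Eme1, Exo1, Ube2t, Etaa1 and Tipin were among the other members past 1.5-fold, at 1.51 (Tipin) to 1.93 (Eme1). The kinase genes themselves were not, with Chek1 at 70.3 CPM at 12 h and 49.2 CPM at 6 h (1.43-fold) and Atr at 33.1 CPM at 12 h and 32.9 CPM at 6 h (1.01-fold). The gene that was lower was H2afx, which encodes the histone variant phosphorylated at stalled or broken DNA, with 63.7 CPM at 12 h and 145 CPM at 6 h (2.28-fold lower, 2.11 to 2.46).

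Most measured histone genes that are tied to DNA replication were lower in the sum over all cells. These genes supply the bulk of new nucleosomes, and their mRNAs mostly end in a stem loop and not in a poly(A) tail, so a poly(A)-primed library holds only a share of them. Of 7 measured members, 0 were higher and 5 lower, with a median log2 ratio of -0.79 (-0.20 with withdrawal). All 5 reached 20 CPM only at 6 h, so the filter itself leaned towards members lower at 12 h. Summed over all 26 members, measured or not, the list had 289 CPM at 12 h and 397 CPM at 6 h. Within the cell cycle classes described below, the median was -1.08 in the S class, -0.98 in the G2/M class and 0.23 in the G1-like class, where 1 of 5 was higher and 2 lower. Hist1h1e, a linker histone gene, had 15.5 CPM at 12 h and 40.4 CPM at 6 h, Hist1h1a 4.39 CPM at 12 h and 20.1 CPM at 6 h, Hist1h1c 12.4 CPM at 12 h and 23.6 CPM at 6 h, Hist1h2bc 8.4 CPM at 12 h and 24.4 CPM at 6 h, and Hist1h2ae 9.78 CPM at 12 h and 20.6 CPM at 6 h. Hist1h1a and Hist1h2bc rested on few cells at 12 h, where the 2% of cells with the most UMIs held 52.9% and 55.2% of them, against 23.5% and 34.1% at 6 h. Hist1h1b was at 0.709 of its 6 h level, and Hist1h4i was at 121 CPM at 12 h and 87.6 CPM at 6 h. Slbp, whose protein binds the histone stem loop, was 1.69-fold higher. H2afx makes both a stem-loop and a polyadenylated mRNA and stood at 245, 145, 63.7, 130.0 and 176 CPM at 0, 6, 12, 24 and 48 h of brequinar, with its lowest level at 12 h. In the withdrawal cultures it lay at 278 CPM at 12 h and 267 CPM at 6 h.

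**Figure D3:**
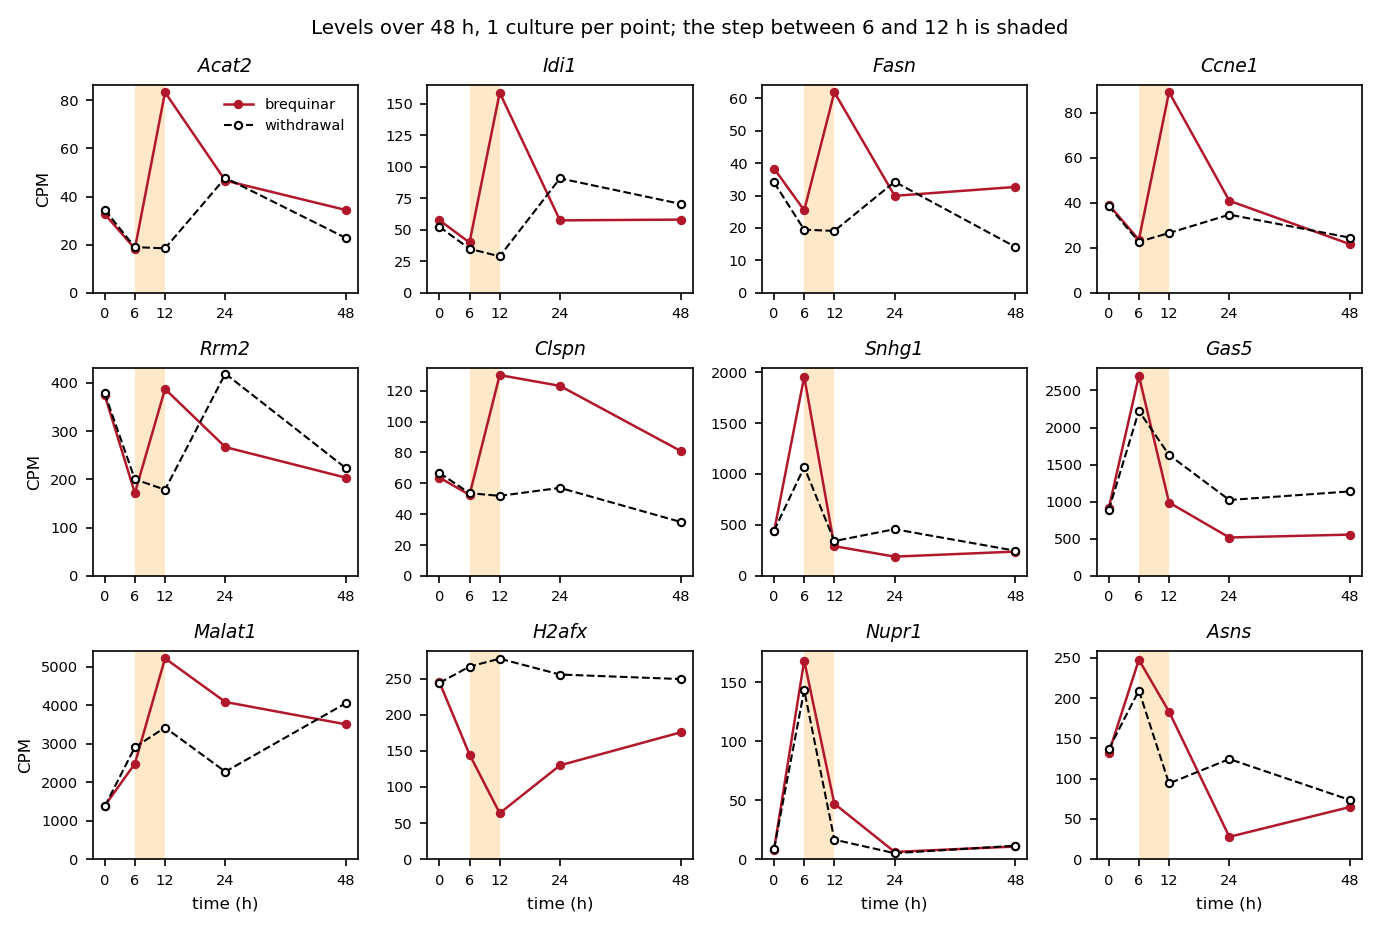
CPM (y axis, starting at 0) of 12 genes over 48 h (x axis) in the brequinar series (red) and the withdrawal series (black, dashed), with 1 culture per point and the step between 6 and 12 h shaded. Acat2, Idi1 and Ccne1 peak at 12 h with brequinar, while Snhg1, Gas5 and Nupr1 peak at 6 h and H2afx is lowest at 12 h.

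RefSeq promoter windows (250 bases before to 50 after an annotated start, mouse build GRCm38.p6) were matched by symbol for 4843 of the 6033 measured genes and searched on both strands for the E2F motif TTTNGCGC. The motif lay in 7 of 31 windows of measured S phase genes (22.6%), in 7 of 50 windows of replication genes and in 3.09% of those of all measured genes, against 1.38% of all promoters in the table. Among windows of the genes 1.5-fold or more higher at 12 h the share was 3.90%. The stretches below show the motif (in capitals, or 2 overlapping copies as 1 run) in genes whose ratios differ, and each is given on the strand of its gene.
Uhrf1 (1.57-fold, chr17:56304103-56304160, + strand): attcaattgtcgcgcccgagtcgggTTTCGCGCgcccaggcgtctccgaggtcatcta
Rfc3 (1.75-fold, chr5:151651209-151651243, - strand): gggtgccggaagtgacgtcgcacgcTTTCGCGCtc
Pola1 (1.48-fold, chrX:93632261-93632318, - strand): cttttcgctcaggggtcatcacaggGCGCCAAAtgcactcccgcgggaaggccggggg
Mcm6 (1.31-fold, chr1:128359720-128359840, - strand): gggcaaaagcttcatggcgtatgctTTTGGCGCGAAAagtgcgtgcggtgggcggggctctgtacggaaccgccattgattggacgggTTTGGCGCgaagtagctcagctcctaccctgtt
Mcm5 (1.21-fold, chr8:75109331-75109392, + strand): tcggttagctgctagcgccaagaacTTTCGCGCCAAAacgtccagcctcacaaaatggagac
The stretch of Mcm6 holds 3 copies and that of Mcm5 holds 2, and both genes had lower ratios than Uhrf1 and Rfc3, whose stretches hold 1. Other genes with the motif are not shown, such as Clspn (2.48-fold) and Lig1 (2.08-fold). Copies and ratios were not compared over all genes that hold the motif. A match is a run of letters and was not tied to binding here.

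Cells were also placed in classes by S and G2/M scores after each was thinned to 2500 UMIs, which left out 212 cells at 12 h and 145 at 6 h. The S class held 36.5% of cells at 12 h (33.9 to 39.1) and 23.6% at 6 h (21.1 to 26.2). The G2/M class held 57.4% at 12 h and 46.8% at 6 h. The class with neither score above 0, called G1-like here, held 6.12% at 12 h (4.89 to 7.55) and 29.7% at 6 h (27.0 to 32.5). The 12 h shares were near those of the 0 h culture, at 34.1% S, 58.0% G2/M and 7.95% G1-like, and the 6 h culture stood apart from both. With withdrawal the S share was 15.8% at 12 h and 20.2% at 6 h, and the G1-like share 36.1% at 12 h and 27.7% at 6 h. These classes are ranges of a score built on genes that differ between the cultures. Near the border of the G1-like class lay 6.95% of cells at 12 h and 11.9% at 6 h. Cells near the border between S and G2/M were not counted. The classes do not count cells that replicate DNA.

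**Figure D4:**
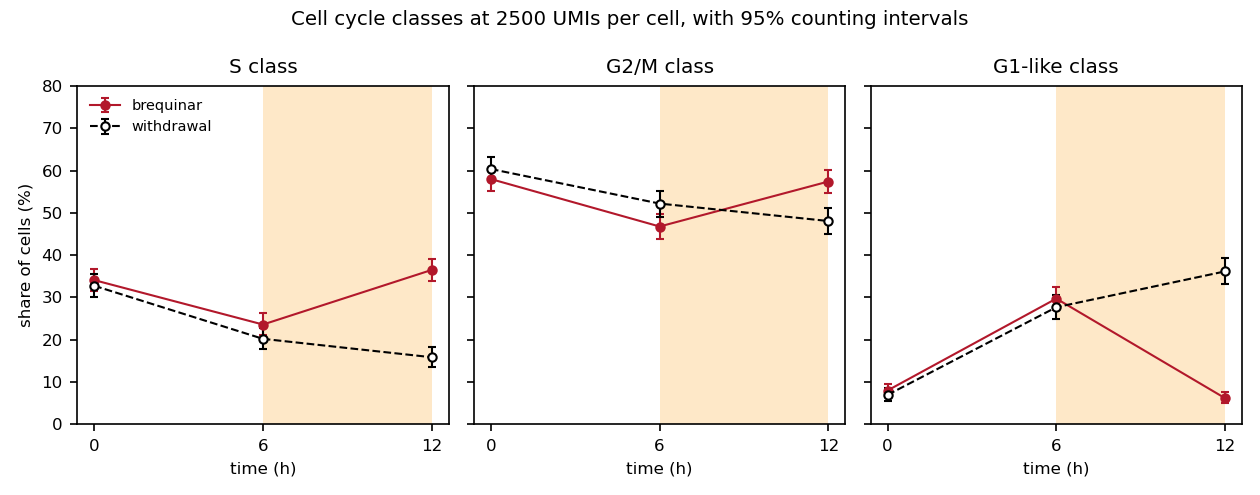
Share of cells in the S, G2/M and G1-like classes (y axis, percent, 2500 UMIs per cell) at 0, 6 and 12 h (x axis) in the brequinar (red) and withdrawal (black, dashed) series, with 95% counting intervals. The G1-like share is 6.12% at 12 h and 29.7% at 6 h of brequinar, and 36.1% at 12 h and 27.7% at 6 h with withdrawal.

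The list differences were set beside these shares by summing counts within each class. Over all genes measured within the S, G2/M and G1-like classes, 359 of 6014, 473 of 6065 and 599 of 6042 were higher. Those lower numbered 257, 231 and 416. The sterol and fatty acid median was 0.85 in the S class, 0.80 in the G2/M class and 0.51 in the G1-like class, with 18 of 25, 23 of 27 and 11 of 23 members higher and 0 lower in each. The replication machinery had medians of 0.21, 0.35 and 0.37 in the S, G2/M and G1-like classes, and the G1 cyclin list 0.35, 0.36 and 0.32. With the 12 h cells weighted to the class shares of the 6 h culture, 21 of 25 sterol genes were still higher, while 10 of 40 S phase genes were higher, and 6 of 35 fork checkpoint genes were higher and 2 lower. The S phase and G2/M genes made the classes, so part of their difference was removed by construction. The G1-like class held 81 cells at 12 h and 329 at 6 h, which makes it the least precise.

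Genes of mitosis were mixed. Of 53 measured G2/M members, 6 were higher and 1 lower, with a median log2 ratio of 0.21, and the count higher was 2 with the class weighting, 3 with the median gene ratio scaling and 11 with cells thinned to the same UMIs or without the 5% of cells with the most UMIs. Aurkb, a kinase of the chromosomal passenger complex, had 138 CPM at 12 h and 78.9 CPM at 6 h, Tubb4b, a beta tubulin, 558 CPM at 12 h and 299.8 CPM at 6 h, and the proliferation marker Mki67 174 CPM at 12 h and 112 CPM at 6 h. The gene that was lower was Cdc20, the activator of the anaphase-promoting complex, at 52.8 CPM at 12 h and 86.3 CPM at 6 h. Within 1.5-fold, Hmmr, a spindle protein gene, stood at 93.6 CPM at 12 h and 131 CPM at 6 h, and the mitotic cyclin gene Ccnb2 at 106 CPM at 12 h and 129 CPM at 6 h.

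The pyrimidine pathway itself differed little. Of 17 measured genes, 2 were higher and 1 lower, with a median log2 ratio of 0.18. Cad, which carries the first 3 steps of pyrimidine synthesis, had 62.8 CPM at 12 h and 37.3 CPM at 6 h (1.68-fold, 1.51 to 1.88). Slc29a1, the nucleoside transporter ENT1, had 58.5 CPM at 12 h and 32.4 CPM at 6 h. Dhodh, the target of the drug, had 24.0 CPM at 12 h and 17.0 CPM at 6 h (1.41-fold, 1.19 to 1.67), below the threshold, and was at 25.5 CPM in the 0 h culture. Umps, the next enzyme, was at 1.2-fold and the uridine kinase gene Uck2 at 0.991-fold. Nt5c2, a cytosolic nucleotidase, was lower, with 12.9 CPM at 12 h and 25.2 CPM at 6 h. Of 21 purine synthesis genes, 0 were higher and 0 lower.

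Targets of p53 did not move together. Of 13 measured members, 1 was higher and 3 lower, with a median log2 ratio of -0.01. Cdkn1a, the CDK inhibitor p21, had 29.1 CPM at 12 h and 17.8 CPM at 6 h. Gadd45a, a growth arrest and DNA damage gene, had 52.1 CPM at 12 h and 167 CPM at 6 h (3.21-fold lower, 2.96 to 3.48), and Pmaip1, the BCL2 antagonist NOXA, 13.1 CPM at 12 h and 20.9 CPM at 6 h. Mdm2, the p53 ubiquitin ligase, stood at 45.7 CPM at 12 h and 45.9 CPM at 6 h, and Bax at 304 CPM at 12 h and 287 CPM at 6 h. Rrm2b, the third member that was lower, is given with the deoxynucleotide genes. Cdkn1a reached 20 CPM only at 12 h and Pmaip1 only at 6 h, so the filter itself leaned towards these calls.

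Small nucleolar RNA (snoRNA) host genes were the lowest list of the step. These genes carry snoRNAs in their introns, and many of their spliced transcripts are short-lived because ribosomes that start on them trigger nonsense-mediated decay. Of 14 measured members of the list, which also holds nuclear noncoding RNAs, 8 were lower and 1 higher, with a median log2 ratio of -0.98. Snhg1 stood at 291 CPM at 12 h and 1954 CPM at 6 h (6.71-fold lower, 6.51 to 6.93), the lowest ratio of all 6033 measured genes. Snhg12 had 54.8 CPM at 12 h and 309 CPM at 6 h (5.64-fold lower), Snhg5 19.6 CPM at 12 h and 114 CPM at 6 h (5.8-fold lower) and Zfas1 139.6 CPM at 12 h and 571 CPM at 6 h (4.09-fold lower). Gas5 had 989 CPM at 12 h and 2697 CPM at 6 h (2.73-fold lower, 2.68 to 2.78). Snhg6, Snhg3 and Snhg15 were lower by 2.15, 2.25 and 2.08-fold, while Snhg8 (0.769), Snhg20 (0.794) and Snhg10 (0.920) had ratios within 1.5-fold.

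The 6 h culture was the high point for these hosts. Snhg1 stood at 436, 1954, 291, 189 and 238 CPM at 0, 6, 12, 24 and 48 h, and Gas5 at 908, 2697, 989, 517 and 556 CPM. The 12 h level was therefore near the 0 h level for Gas5 and below it for Snhg1. The high 6 h level was also seen with withdrawal, where Snhg1 had 342 CPM at 12 h and 1068 CPM at 6 h, against 443 CPM at 0 h. The withdrawal median was -0.42 with 4 of 14 lower and 0 higher, and for Snhg1 the brequinar difference was 2.15 times the withdrawal one (2.05 to 2.25). Within the S, G2/M and G1-like classes the brequinar medians were -0.84, -0.96 and -0.96. The sums did not rest on few cells, since the 2% of cells with the most Snhg1 UMIs held 9.92% of them at 12 h and 7.95% at 6 h. Malat1, a nuclear RNA that hosts no snoRNA, went the other way, with 5212 CPM at 12 h and 2478 CPM at 6 h (2.1-fold, 2.08 to 2.13). Neat1, the scaffold RNA of paraspeckles, had 210.1 CPM at 12 h and 293 CPM at 6 h.

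The snoRNA-hosting protein-coding genes Rabggtb and Eif4a2 were also near the bottom of the step. Rabggtb, a subunit of the enzyme that prenylates Rab proteins, had 61.5 CPM at 12 h and 233 CPM at 6 h (3.8-fold lower), and Eif4a2, a helicase of translation initiation, 69.2 CPM at 12 h and 164 CPM at 6 h (2.37-fold lower). Both are among the 15 lowest genes at 50 CPM or more. Of 71 measured cytosolic ribosomal protein genes, 0 were higher and 2 lower, and these were Rpl10a (79.5 CPM at 12 h and 147 CPM at 6 h) and Rpl3 (106 CPM at 12 h and 182 CPM at 6 h). The ribosomal protein list as a whole had 70 of 71 ratios below 1 and a median log2 ratio of -0.25, which ranged over -0.30 to -0.22 among the scalings and cell filters tried. With cells thinned to the same UMIs, 5 of 71 were lower. Of 62 nucleolar ribosome biogenesis genes, 0 were higher and 0 lower, with a median of -0.13.

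Genes of the amino acid response stood lower at 12 h in small steps. ATF4 is a transcription factor made when the kinases of the integrated stress response slow translation, and its targets make, import and charge amino acids. Of 26 measured targets, 0 were higher and 3 lower, and 25 had a ratio below 1, with a median log2 ratio of -0.33. Atf4 itself had 286 CPM at 12 h and 383 CPM at 6 h (0.746-fold, 0.717 to 0.777). Asns, asparagine synthetase, had 183 CPM at 12 h and 248 CPM at 6 h, Trib3, a pseudokinase that damps ATF4, 111 CPM at 12 h and 156 CPM at 6 h, and Ddit3, the factor CHOP, 565 CPM at 12 h and 661 CPM at 6 h. The 3 members past the threshold were Nupr1, a small stress-induced chromatin protein, with 47.0 CPM at 12 h and 169 CPM at 6 h (3.59-fold lower, 3.3 to 3.9), Eif4ebp1, an inhibitor of cap-dependent translation, with 349 CPM at 12 h and 566 CPM at 6 h, and Slc3a2, the heavy chain of amino acid transporters, with 199 CPM at 12 h and 309.9 CPM at 6 h. Without mitochondrially encoded genes in the total, 5 of 28 targets were lower.

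Nupr1, Trib3 and Asns remained above the 0 h culture at 12 h. Nupr1 stood at 8.08, 169, 47.0, 6.07 and 10.7 CPM at 0, 6, 12, 24 and 48 h of brequinar, and Trib3 at 29.2, 156, 111, 6.54 and 15.1 CPM. Asns at 24 h was 27.7 CPM, below its 0 h level of 132 CPM. In the withdrawal step 15 of the 26 targets were lower and 0 higher, with a median of -0.63. Slc3a2 and Eif4ebp1 did not follow the median, with ratios of 0.641 and 0.618 with brequinar and of 0.703 and 0.631 with withdrawal. Nupr1 had 16.5 CPM at 12 h and 143 CPM at 6 h of withdrawal, Trib3 49.1 CPM at 12 h and 175 CPM at 6 h, and Asns 94.0 CPM at 12 h and 209.5 CPM at 6 h. For Asns the brequinar ratio was 1.65 times the withdrawal ratio (1.51 to 1.8), and for Nupr1 2.43 times (2.04 to 2.89). Of 20 cytosolic aminoacyl-tRNA synthetase genes, some of which are also in the ATF4 list, 2 were lower and 0 higher (median -0.29), against 9 lower with withdrawal (median -0.54). These 2 were Wars (52.1 CPM at 12 h and 93.9 CPM at 6 h) and Lars (119 CPM at 12 h and 188 CPM at 6 h).

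The C/EBP-ATF response element TGATGNAA, the composite site that ATF4 binds with C/EBP partners, was found on either strand in 8 of 28 promoter windows of measured ATF4 targets (28.6%), against 2.26% of those of all measured genes and 3.97% of all promoters. Among windows of genes lower at 12 h the share was 3.68%. The stretches below show the motif in capitals in the target with the lowest ratio and in others that differed less.
Nupr1 (0.279-fold, chr7:126625548-126625605, - strand): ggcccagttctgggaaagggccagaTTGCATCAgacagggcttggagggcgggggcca
Tars (0.678-fold, chr15:11399659-11399698, - strand): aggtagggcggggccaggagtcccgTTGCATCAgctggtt
Asns (0.740-fold, chr6:7693210-7693257, - strand): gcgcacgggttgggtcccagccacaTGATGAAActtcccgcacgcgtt
Slc7a11 (0.815-fold, chr3:50443628-50443704, - strand): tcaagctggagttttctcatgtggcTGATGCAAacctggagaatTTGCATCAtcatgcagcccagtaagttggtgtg
Aars (1.14-fold, chr8:111033705-111033762, + strand): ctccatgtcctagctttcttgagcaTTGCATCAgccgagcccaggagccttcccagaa
Nupr1 and Aars hold the same 8 letters, with ratios of 0.279 and 1.14. The E-box CACGTG, which MYC and MAX bind, lay in 9.27% of windows of genes higher, 9.47% of windows of genes lower and 11.1% of windows of all measured genes.

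Myeloid transcription factors had 0 of 18 measured members higher and 2 lower, with a median log2 ratio of 0.05 with brequinar and 0.51 with withdrawal, so as a list they lay at the median of all measured genes. Cebpe, which drives late granulocyte maturation, stood at 65.2 CPM at 12 h and 58.9 CPM at 6 h with brequinar, and at 232 CPM at 12 h and 98.1 CPM at 6 h with withdrawal. Cebpa, its upstream relative, had 39.0 CPM at 12 h and 40.9 CPM at 6 h with brequinar and 105 CPM at 12 h and 50.4 CPM at 6 h with withdrawal, and Spi1, which encodes PU.1, had 186 CPM at 12 h and 178 CPM at 6 h with brequinar. Cebpe with brequinar reached 704 CPM at 24 h and Spi1 617 CPM, so their large differences lay after 12 h. The 2 factors that were lower were the immediate early genes Fos (16.3 CPM at 12 h and 29.1 CPM at 6 h) and Junb (25.7 CPM at 12 h and 45.4 CPM at 6 h). Myc had 126 CPM at 12 h and 159 CPM at 6 h with brequinar and 150.1 CPM at 12 h and 49.0 CPM at 6 h with withdrawal.

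Progenitor genes were split. Of 23 measured, 4 were higher and 1 lower, with a median log2 ratio of 0.09. With withdrawal 6 were higher and 2 lower, with a median of 0.27. Higher were the factors Ikzf2 (42.7 CPM at 12 h and 14.4 CPM at 6 h), Runx1 (66.2 CPM at 12 h and 40.2 CPM at 6 h) and Pbx3 (38.4 CPM at 12 h and 24.2 CPM at 6 h) and the secreted ligand Angpt1 (57.8 CPM at 12 h and 29.3 CPM at 6 h). Ikzf2 and Angpt1 were also higher in the withdrawal step (3.53 and 2.74-fold), while Pbx3 was at 0.753-fold there. Hmga2, an architectural chromatin protein of fetal and leukemic progenitors, was lower, with 51.8 CPM at 12 h and 105 CPM at 6 h (2.04-fold lower). Hoxa9 had 72.7 CPM at 12 h and 98.4 CPM at 6 h, its partner Meis1 93.9 CPM at 12 h and 79.0 CPM at 6 h, Cd34 412 CPM at 12 h and 337 CPM at 6 h and Kit 107 CPM at 12 h and 109.6 CPM at 6 h, all within 1.5-fold. Flt3 was at 0.733 of its 6 h level with brequinar and at 0.331 with withdrawal.

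Granulocyte genes that were higher rested on few cells in part. Primary granule genes had 2 of 14 measured members higher and 0 lower (median -0.00), namely Ms4a3 (202 CPM at 12 h and 128 CPM at 6 h) and Elane (32.6 CPM at 12 h and 20.2 CPM at 6 h), while Mpo was at 872 CPM at 12 h and 855 CPM at 6 h. Neutrophil maturation genes had 2 of 11 higher and 0 lower (median 0.36), namely Chil3 (65.8 CPM at 12 h and 30.6 CPM at 6 h) and Stfa1 (153 CPM at 12 h and 100.1 CPM at 6 h). The 2% of cells with the most UMIs of Chil3 held 77.0% of them at 12 h and 54.9% at 6 h, and for Stfa1 these shares were 64.2% at 12 h and 41.8% at 6 h. With the 12 h cells weighted to the 6 h class shares, 8 of 12 measured neutrophil genes were higher, and with 5% of each sum taken out as free RNA, by the profile of barcodes with 2 to 100 UMIs, 6 of 11 were. With every cell weighted the same, 1 of 11 was. The weighting to class shares raises the G1-like class, with 81 cells at 12 h, from 6.12% to 29.7% of the 12 h cells. The neutrophil median was 1.80 in the G1-like class, 0.93 in the S class and -0.34 in the G2/M class, so it took both signs across the classes. In the free RNA profile the list summed to 7392 CPM, against 1227 CPM at 12 h and 1050 CPM at 6 h. Chil3 stood at 543 CPM there, and taking out 5% moved its log2 ratio from 0.99 to 2.41. How much of the Chil3 and Stfa1 levels was free RNA was not tested. Itgam, which encodes CD11b, had 5 UMIs at 12 h and 1 at 6 h, a ratio of 4.11 with an interval of 0.46 to 194.

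Eosinophil and mast cell genes had a lower median than with withdrawal. Of 7 measured members, 2 were higher and 0 lower with a median log2 ratio of 0.29, against 5 higher and a median of 1.37 with withdrawal. With the 12 h cells weighted to the 6 h class shares, 4 of 7 were higher and the median was 0.90. With every cell weighted the same, cells thinned to the same UMIs, free RNA taken out, the filter on UMIs and mitochondrial share, or the 5% of cells with the most UMIs left out, 3 of 7 were higher. Siglecf, an eosinophil surface lectin, had 44.3 CPM at 12 h and 13.9 CPM at 6 h (3.18-fold), and Cpa3, a mast cell protease, 591 CPM at 12 h and 354 CPM at 6 h (1.67-fold), against 1236 CPM at 12 h and 355 CPM at 6 h with withdrawal. The summed mast cell and basophil markers given above were mostly Cpa3, and the other markers were not higher at 12 h. Mcpt8 had 31.4 CPM at 12 h and 36.3 CPM at 6 h, Ms4a2 2.01 CPM at 12 h and 2.44 CPM at 6 h, and Fcer1a 0 CPM in both. More cells with Cpa3 and more Cpa3 RNA per cell cannot be told apart in a sum over cells. Prg2 and Prg3, eosinophil granule proteins, were at 1.22 and 1.49-fold with brequinar. Among monocyte and phagocyte genes 2 of 14 were higher, Itgb2, the beta chain of leukocyte integrins (21.0 CPM at 12 h and 10.8 CPM at 6 h), and the chemokine receptor gene Ccr2 (117 CPM at 12 h and 76.8 CPM at 6 h).

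Outside these lists, and with a minimum of 50 CPM, the highest ratio was that of Oaf, with 71.1 CPM at 12 h and 17.0 CPM at 6 h (4.19-fold). With withdrawal Oaf had 83.5 CPM at 12 h and 28.9 CPM at 6 h (2.89-fold). Clec4d, a C-type lectin receptor of myeloid cells, had 497 CPM at 12 h and 151 CPM at 6 h (3.28-fold, 3.12 to 3.45), against 140.4 CPM at 12 h and 169.9 CPM at 6 h with withdrawal. Milr1, an inhibitory receptor of mast cells, had 96.8 CPM at 12 h and 28.3 CPM at 6 h with brequinar (3.42-fold). With withdrawal it had 117 CPM at 12 h and 39.0 CPM at 6 h (3.0-fold), so Milr1, like Oaf, was higher in both series. The others were Tmem29 (2.78-fold), Tsc22d1 (2.62-fold), Blvra, a biliverdin reductase (2.57-fold), and Dlg2, a scaffold protein (2.37-fold). Among the 15 lowest, those in no list were Mcfd2, a cargo receptor subunit of the early secretory pathway (3.3-fold lower), the antiviral RNA-binding protein gene Zc3hav1 (3.03-fold lower), Mamdc2 (2.93-fold lower), the diacylglycerol kinase gene Dgkg (2.85-fold lower) and Hint2, a mitochondrial nucleotide hydrolase (2.33-fold lower). With withdrawal Mcfd2, Mamdc2 and Dgkg were at 0.598, 0.188 and 0.644-fold, also past the threshold, and Hint2 was at 0.912-fold. Zc3hav1 stood at 222, 510.4, 168, 206 and 209 CPM at 0, 6, 12, 24 and 48 h of brequinar, another high point at 6 h.

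Other lists are given by their counts. Of 63 nuclear respiratory chain genes 1 was higher and 0 lower, of 26 heat shock chaperones 0 and 1, of 18 glycolysis genes 0 and 2, and of 22 endoplasmic reticulum chaperone genes 1 and 2. Of 27 genes of glutathione, thioredoxin and peroxide defence, 4 were higher and 0 lower, namely the peroxiredoxin gene Prdx1 (1693 CPM at 12 h and 906 CPM at 6 h), the glutathione transferase gene Gsta4 (35.5 CPM at 12 h and 15.8 CPM at 6 h), the sulfiredoxin gene Srxn1 (28.6 CPM at 12 h and 16.6 CPM at 6 h) and catalase, Cat (50.5 CPM at 12 h and 32.4 CPM at 6 h). Interferon and antigen presentation genes had 2 of 16 higher, immediate early and KLF factors 3 of 11 lower, HMG proteins and chromatin enzymes 1 of 23 higher and 2 lower, and BCL2 family genes 1 of 14 higher and 1 lower. Chemokine genes had 1 of 5 higher and lymphoid genes 1 of 3. Some genes count in more than 1 list, so these counts are not independent. Fos, Junb, Hmga2 and Ccr2, given above, count again among these lists, and Cycs counts in both the respiratory chain and BCL2 lists. Ccne2, Clspn and Brip1 count in the S phase list and again in the G1 cyclin or fork checkpoint list. The MYC network, estrogen receptor targets, erythroid and dendritic cell lists had 0 members past 1.5-fold among 6, 6, 2 and 3 measured, and megakaryocyte and fibroblast genes had 0 measured members.

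The step with brequinar and the step with withdrawal share no culture and were set side by side over 5701 genes measured in both. The log2 ratios had a Pearson r of 0.30 and a Spearman rho of 0.22 across genes, which are not independent replicates. Among these 5701 genes, 307 were higher with brequinar and 178 with withdrawal, and 46 were higher in both (15.0% and 25.8% of these lists). Of the 196 and 241 genes that were lower, 54 were lower in both (27.6% and 22.4%). Over all genes measured in the withdrawal step, 3.96% were higher and 4.31% lower, to set beside the 15.0% and 27.6%. Over all genes measured in the brequinar step, 6.8% were higher and 3.36% lower, to set beside the 25.8% and 22.4%. These background shares are over the 5891 and 6033 genes measured in each step, not over the 5701 measured in both. In 17 genes the brequinar ratio was 1.5 or more and the withdrawal ratio 1.5-fold or more lower, and 4 genes had the opposite pattern. The 17 were 5.54% of the genes higher with brequinar and 7.05% of those lower with withdrawal. These shares lay near the 4.31% and 6.8% over all measured genes, so the count of 17 is not read as a result. No share was computed for the 4 genes of the opposite pattern, and their count is not read as a result either. The 17 include the homologous recombination gene Brca2 (1.59-fold with brequinar and 0.584-fold with withdrawal), the clamp loader gene Rfc3 (1.75 and 0.652-fold), the chromatin remodeller gene Hells (1.51 and 0.642-fold) and Dlg2 (2.37 and 0.590-fold). The lists with medians on opposite sides of 0 in the 2 steps included S phase (0.48 with brequinar and -0.24 with withdrawal), the replication machinery (0.37 and -0.28) and the fork checkpoint (0.26 and -0.26). The snoRNA hosts and ATF4 targets lay below 0 in both. Brequinar 6 h and 12 h against the 0 h culture share cultures with this step: 516 genes were higher and 291 lower at 6 h than at 0 h (8.82% and 4.97% of 5851), and 812 higher and 280 lower at 12 h than at 0 h (13.5% and 4.67% of 6000).

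**Figure D5:**
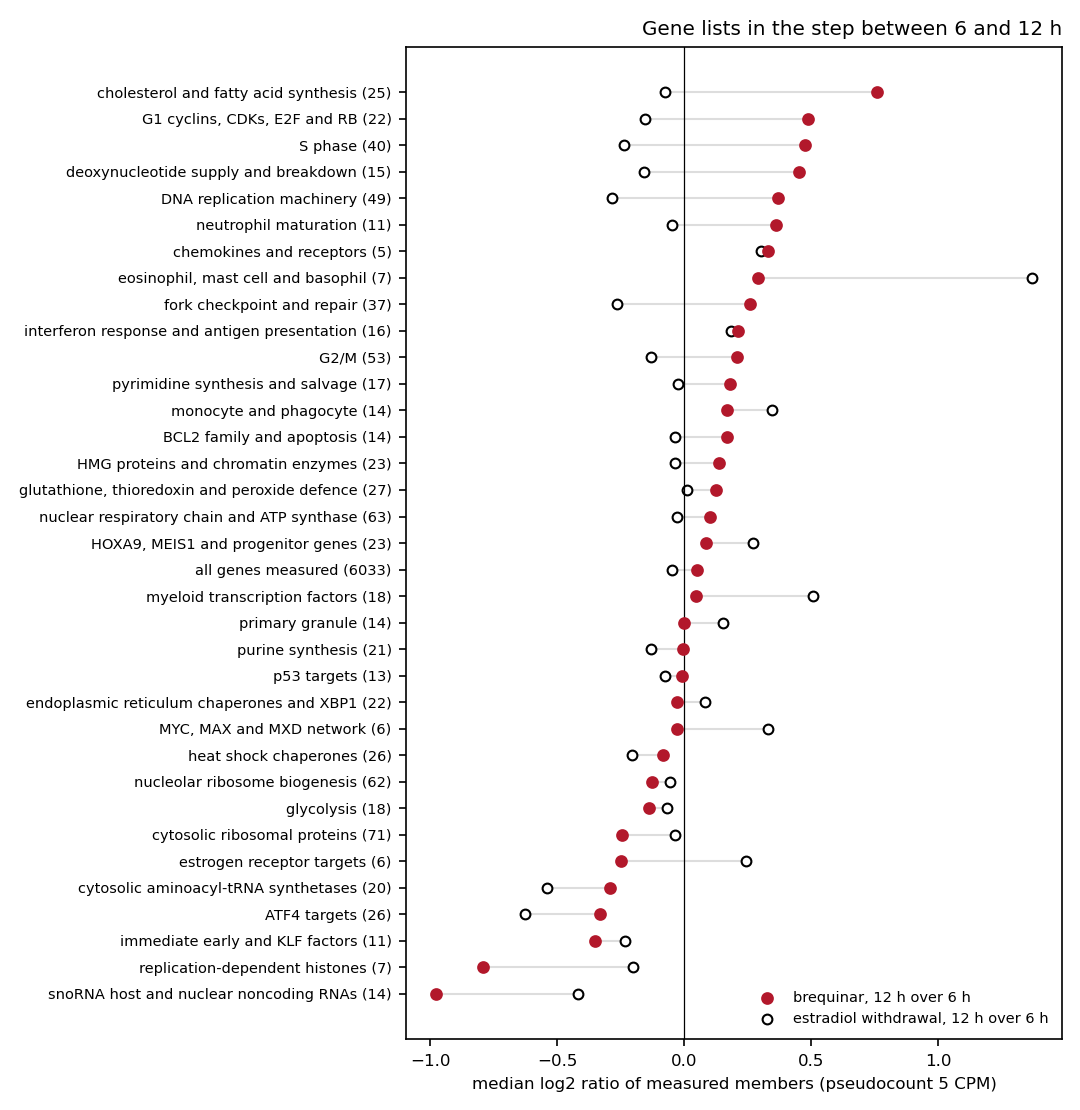
Median log2 ratio (x axis, pseudocount 5 CPM) of the measured members of each gene list with 5 or more of them (y axis, number measured in brackets), for 12 h over 6 h with brequinar (red) and with estradiol withdrawal (open circles). Cholesterol and fatty acid genes are highest with brequinar (0.76, against -0.08 with withdrawal) and snoRNA hosts and nuclear RNAs lowest (-0.98, against -0.42).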

How the data were processed

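Gene counts were the authors' deposited matrix of spliced counts per cell, pooled over 2 runs, and cell calls were their deposited MULTI-seq table, whose unit here is other (labels). Per the submitters' processing notes, Cell Ranger, bustools 0.39.4 and kallisto 0.46 were used, in roles that are not stated, and the genome build is not given in the sources used here. The unspliced matrix was not used. Of 15582 called barcodes, 2777 doublet and 265 negative calls were left out.

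UMIs were summed per culture and scaled to CPM of all genes, with no further filter on cells. A gene counted as measured if 1 of the 2 cultures reached 20 CPM, 1.5-fold was the threshold, and log2 ratios used a pseudocount of 5 CPM. Gene IDs were matched to symbols for 54723 of 54838. Ratio intervals are exact (conditional binomial, Clopper-Pearson, 95%), as are those of shares, and cover counting error only. A count of 0 allows up to 3 counts, which is 0.188 CPM at 12 h and 0.229 CPM at 6 h. With 1 culture per time no p-value was computed. Cell cycle classes came from scanpy 1.11.5 scores, with Python 3.11.15, numpy 2.4.6, pandas 2.3.3 and scipy 1.17.1. The calculation of ratios and their intervals was tested on simulated counts with planted 2-fold changes. These held counting error only, so differences between cultures, the lists and the cell classes were not covered by that test.

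Genes named are the 15 highest and 15 lowest at 50 CPM or more, up to 4 members each way per list past 1.5-fold, and a fixed set of pathway genes. Other genes were named after their values were seen, from the lists or by their place in a comparison. The 39 lists and the members were chosen with earlier results of these data known. Shares of cells with a UMI are not reported. Some members of the lists are counted but not reported here by name.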

Additional observations from a re-analysis of the deposited data

Results flagged for a closer look

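Some results lay on opposite sides of no difference in the 2 series, with 1 culture per time, and the difference between the series was not tested. Values are 12 h over 6 h. The S phase list had a median log2 ratio of 0.48 with brequinar and -0.24 with withdrawal, the replication machinery 0.37 and -0.28, and the fork checkpoint and repair list 0.26 and -0.26. The 6 measured estrogen receptor targets had -0.25 with brequinar, where estradiol was kept, and 0.24 with withdrawal. Dlg2, a scaffold protein gene, was at a ratio of 2.37 with brequinar and 0.59 with withdrawal. Igll1, a surrogate light chain gene of early B cells, was at 2.07 and 0.505. The immediate early gene Fos was at 0.56 with brequinar and 1.78 with withdrawal.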

How the results depend on the processing

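No paired analysis was possible because each time had 1 culture and the replicate numbers of the 2 runs are not marked in the cell barcodes, so no run could be left out either. The number of genes higher at brequinar 12 h than 6 h was 97 at 2-fold, 983 at 1.3-fold, 207 among genes at 50 CPM or more and 2555 among genes with 3 counts or more. The number of genes lower at brequinar 12 h than 6 h was 40, 568, 119 and 1777 under these settings. Over the other 8 settings they numbered 329 to 551 higher and 189 to 266 lower. List medians ranged over 0.59 to 0.88 for sterol and fatty acid genes, 0.36 to 0.55 for S phase, -1.07 to -0.73 for snoRNA hosts, -1.0 to -0.45 for replication-dependent histones and -0.39 to -0.24 for ATF4 targets. The medians of the MYC network, myeloid factor, p53, primary granule and purine lists, all near 0, took both signs, as did the ratios of Cebpa, Cebpe, Kit, Mdm2, Mpo and Uck2. Without thinning, the S class held 49.9% of cells at 12 h and 38.7% at 6 h, G2/M 47.1% at 12 h and 37.7% at 6 h, and G1-like 2.95% at 12 h and 23.6% at 6 h. With each cell thinned to 1000 UMIs fewer than the 2500 used, the G1-like share at 12 h was 9.2%. The cause of these moves was not tested. Depth limits most the G1-like class, with 81 cells at 12 h.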
